A study of Mus musculus with 6 samples.

Results

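The genes described here encode transcription factors, and 1 chemokine receptor, that set the choice between a follicular helper and an effector fate in CD4+ T cells. The 10 names were Bcl6, Prdm1, Tcf7, Lef1, Id2, Id3, Tox, Tox2, Ascl2 and Cxcr5, and they were chosen by name from the biology of this choice. The deposited table, which listed 14868 genes, held a row for 8 of them. Tox2 and Ascl2, which had none, are not analysed here. All 8 genes with a row passed the filter on low values.

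CD4+ T cells that meet antigen can become follicular helper cells, which enter B cell follicles and help antibody responses, or effector cells such as T helper 2 (Th2) cells, which leave for tissues. Bcl6 is the repressor that directs the follicular fate, and Prdm1 encodes Blimp-1, the repressor that opposes it; each lowers transcription of the other. TCF-1 (from Tcf7) and Lef1 are known to raise Bcl6 and lower Prdm1 early in the response, while interleukin-2 acting through STAT5 is known to do the reverse.

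The libraries were total RNA of CD4+ T cells from mice of C57BL/6J background, either wild type (WT, 3 libraries) or Ikzf4-/- (3 libraries), which lack the gene for the Ikaros-family zinc finger protein Eos. Both groups began as naïve cells and were grown for 72 h on plates coated with anti-CD3 (5 µg/mL) and anti-CD28 (2 µg/mL), with 10 ng/mL IL-4 and 10 µg/mL anti-Ifng, which favour the Th2 fate. The labels do not say in which cells or how Ikzf4 was deleted, nor whether each library came from a separate mouse or culture, so the p-values measure the spread between these libraries, which may be technical. The comparison asks how the transcriptome of Th2 cells differs without Eos.

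The values are normalized read counts. Divided by the step that each library's values are multiples of, they imply 34701390 to 40604346 reads per library, a description of depth that no test used, because the step of Ikzf4-/- replicates 1 and 3 was too close to 1 for the division to be checked. Ikzf4 itself was at 756, 499.6 and 483 in WT replicates and at 25.2, 10.5 and 38.2 in those labelled Ikzf4-/-, so all 6 libraries matched their labels. The T cell markers Cd3d, Cd3e, Cd3g, Cd4 and Cd28 were all measured, and their summed value was 62983 to 64630 in WT and 62803 to 66245 in Ikzf4-/- libraries. Of the B cell markers, which matter here because B lineage cells also use Bcl6 and Prdm1, only Cd79a and Cd79b had a row, and their sum was 51.1 to 83.6 in WT and 58.6 to 90.4 in Ikzf4-/- libraries. Ms4a1 and Pax5 had no row. Cd8a and Cd8b1 summed to 236 to 423 in WT and 232 to 374 in Ikzf4-/- libraries. Of the myeloid markers Cd68 had a row (59.6 to 96.1 in WT and 69.3 to 89.0 in Ikzf4-/-), and of the natural killer markers Eomes had one (149 to 299 in WT and 165 to 284 in Ikzf4-/-). Each of these ranges overlapped between genotypes. The sum of the T cell markers hides opposite shifts in single genes. Without overlap, Cd3g was lower in Ikzf4-/- libraries (mean 12466 in WT and 11175 in Ikzf4-/-) and Cd4 was higher (26436 and 27920). Neither had an adjusted p under 0.05 in limma, and 23.1% of all genes tested also did not overlap.

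Among the 8 genes, Bcl6 rose in Ikzf4-/- cells and was the only one called, that is, with an adjusted p under 0.05 in limma over all genes. Prdm1 had the larger fitted change, in the opposite direction, but its adjusted p was 0.0588. The other 6 genes had smaller fitted changes, and their values overlapped between genotypes. One called gene of 8 stands beside 263 of the 14864 genes tested (1.77%), of which 85 (0.572%) were higher and 178 (1.20%) lower. The median log2 fold change was 0.11 over the 8 genes and 0.00479 over all genes. WT and Ikzf4-/- values were fully separated for 2 of the 8 genes, 1 in each direction, and for 23.1% of all genes tested. In the authors' deposited table Bcl6 and Prdm1 were under 0.05, beside 815 (5.48%) of the genes tested here.

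**Figure D1:**
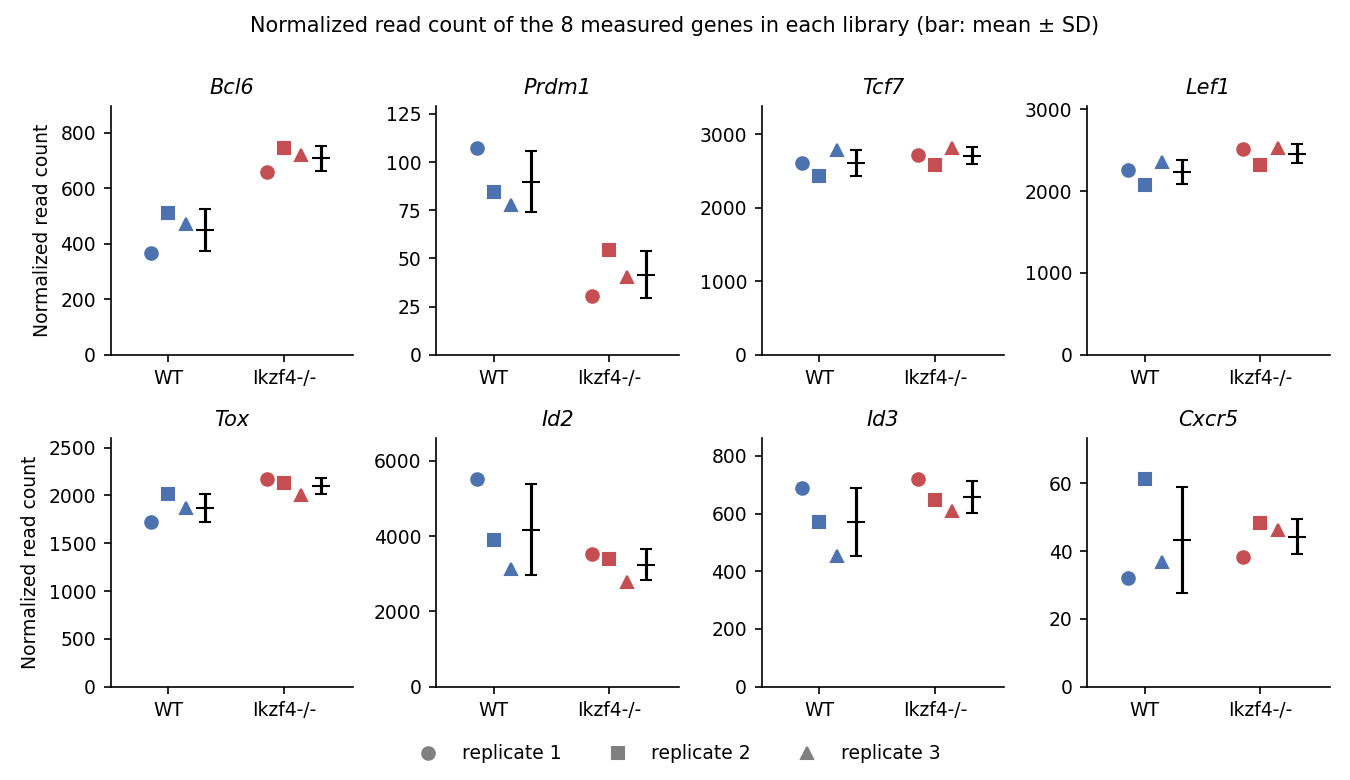
Normalized read count (vertical axis, starting at 0) of each of the 8 genes in the 3 WT (blue) and 3 Ikzf4-/- (red) libraries, with the mean and SD of each group in black. The groups are separate for Bcl6, where Ikzf4-/- is higher, and Prdm1, where it is lower, and overlap for the other 6 genes.

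Bcl6 (ENSMUSG00000022508) lies on the minus strand of chromosome 16, from 23965052 to 23988852 in GRCm38. WT replicates 1, 2 and 3 had normalized read counts of 365, 510 and 470, and their Ikzf4-/- counterparts had 658, 746 and 718. Every Ikzf4-/- library was above every WT library, and WT replicate 1 was the lowest. The mean rose from 448 ± 74.9 to 707 ± 45.3 (SD, n = 3 each), which is 1.59-fold on the fitted scale. The log2 fold change was 0.67 with an SE of 0.12 and a 95% interval from 0.40 to 0.94 (limma adjusted p = 0.0291). In the authors' deposited table it was 0.66, with an adjusted p of 2.98e-05. The call rested on all 3 Ikzf4-/- libraries: the adjusted p was 0.0650 without replicate 1, 0.0937 without replicate 2 and 0.111 without replicate 3. The count called over all genes also fell in these fits, from 263 to 48, 112 and 20, so the loss was not particular to Bcl6. The fitted change in these 3 fits stayed between 0.63 and 0.72. Leaving out WT replicate 1 gave a smaller change of 0.53 with an adjusted p of 0.0159.

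Prdm1 (ENSMUSG00000038151) lies on the minus strand of chromosome 10, from 44437177 to 44528501, on the same chromosome as Ikzf4 and 84.1 Mb from it. Normalized read counts of 108, 84.5 and 77.6 in WT stood against 30.3, 54.4 and 40.2 in Ikzf4-/- cells. The groups did not overlap, and the gap between the lowest WT and the highest Ikzf4-/- library was smaller than the range within the WT group. The means were 89.9 ± 15.7 and 41.6 ± 12.2 (SD, n = 3 each). The log2 fold change was -1.12 with an SE of 0.26 and a 95% interval from -1.69 to -0.54, and the limma adjusted p of 0.0588 was above the threshold. The SE for Bcl6 was 0.12. In the authors' deposited table Prdm1 passed, with an adjusted p of 0.0102 and a log2 fold change of -1.11. No fit that left out 1 library called it, with adjusted p from 0.0576 without WT replicate 3 to 0.164 without Ikzf4-/- replicate 3. In bulk RNA such as this, fewer cells that express a gene and less RNA per cell cannot be told apart.

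**Figure D2:**
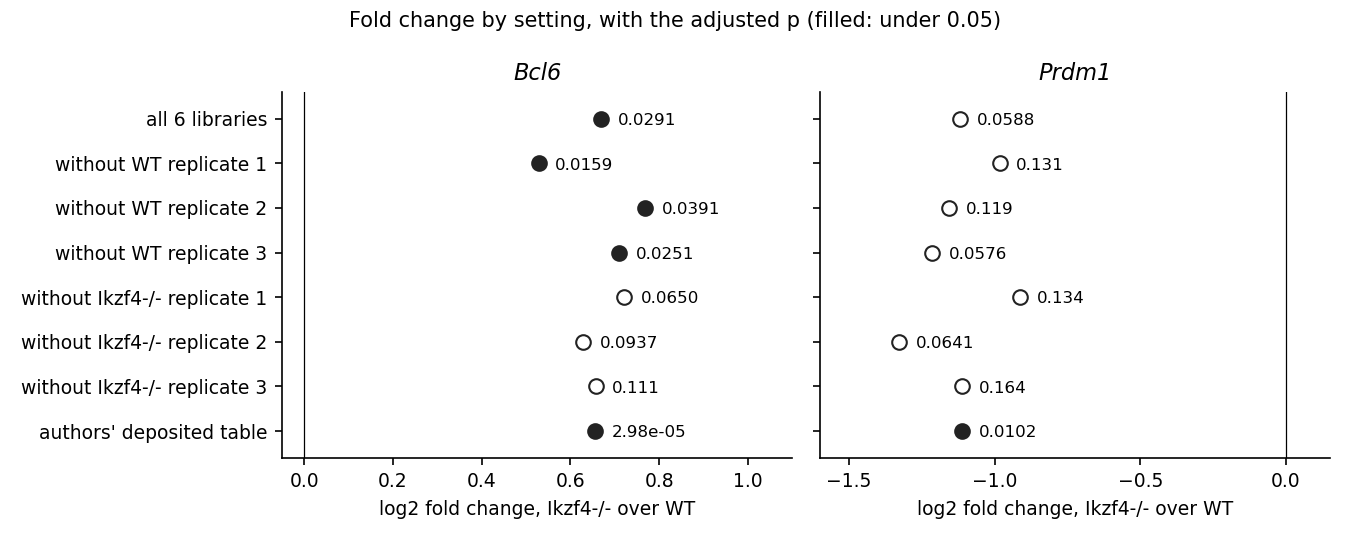
Log2 fold change of Bcl6 (left) and Prdm1 (right), Ikzf4-/- over WT, with all 6 libraries, with each library left out, and in the authors' deposited table; the number beside each point is its adjusted p, and filled points are under 0.05. The direction held in all 8 settings for both genes, while the call of Bcl6 was lost without any 1 of the Ikzf4-/- libraries. Without Ikzf4-/- replicates 1, 2 and 3 the count called over all genes also fell, from 263 to 48, 112 and 20.

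Because Bcl6 and Prdm1 repress each other, their ratio within a library was also taken, as a description with no test. Bcl6 was at 3.40, 6.04 and 6.05 times Prdm1 in WT and at 21.7, 13.7 and 17.9 times in Ikzf4-/- cells. The lowest Ikzf4-/- ratio thus stood more than 2-fold above the highest WT ratio. Since both genes were already separated, in opposite directions, their ratio had to separate too, and it adds no support to either change. Of the 13 pairs that hold Bcl6 or Prdm1, 12 had ratios without overlap. Over all pairs of tested genes above 0 in every library the share was 22.3%. That share is not a matched one, since it covers pairs whether or not they hold a separated gene. Bcl6 and Prdm1 were each separated on their own, so ratios that hold them tend to separate whatever the partner gene does. The count of 12 therefore restates those separations and adds no support. On the log2 scale the mean ratio was 2.32 ± 0.48 in WT and 4.13 ± 0.33 in Ikzf4-/- cells (SD, n = 3 each), a difference of 1.81, or 3.50-fold. These are ratios of read counts not divided by transcript length, so they compare libraries and not the abundance of the genes. Leaving out each library in turn gave differences from 1.53, without WT replicate 1, to 1.98, without Ikzf4-/- replicate 2. Within the WT group, replicate 1 had both the lowest Bcl6 and the highest Prdm1. Within the Ikzf4-/- group there was no such opposition, and replicate 2 had the highest value of both genes.

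**Figure D3:**
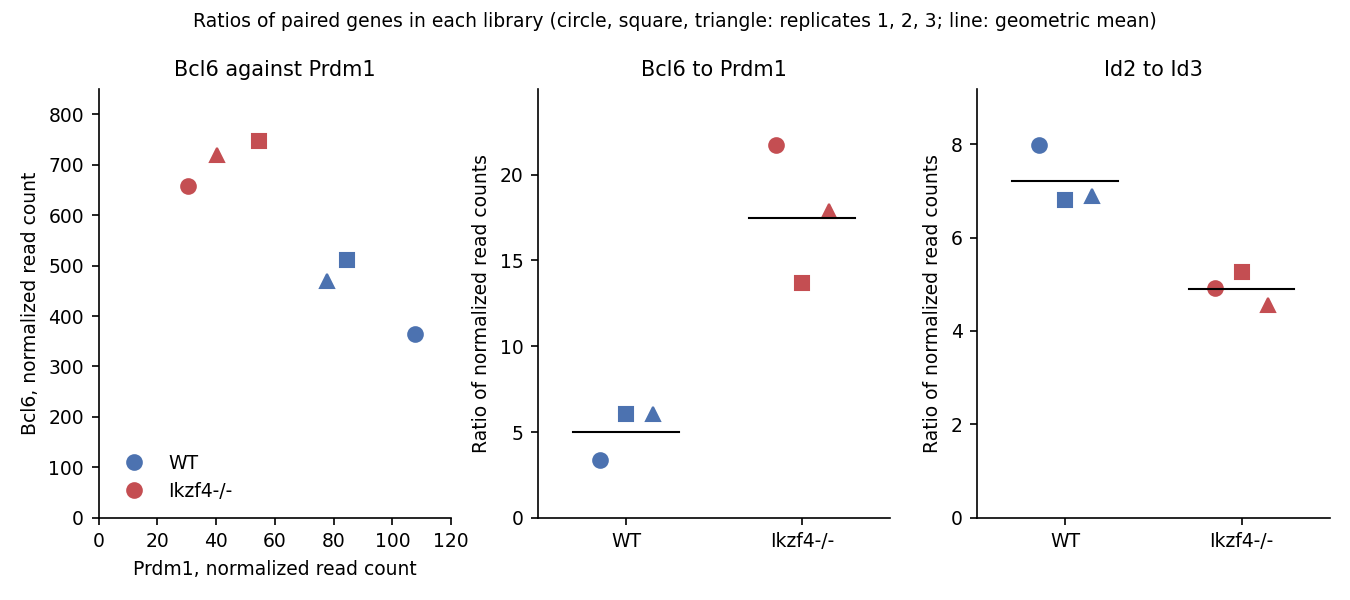
Left, Bcl6 against Prdm1 (normalized read counts) in each library; middle and right, the ratio of Bcl6 to Prdm1 and of Id2 to Id3 in each library, with the geometric mean of each group as a line. The 3 Ikzf4-/- libraries (red) have Bcl6 to Prdm1 ratios of 13.7 to 21.7 against 3.40 to 6.05 in WT (blue), and Id2 to Id3 ratios of 4.55 to 5.26 against 6.79 to 7.98.

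The start sites of these opposed genes were inspected in sequence, since the STAT factors downstream of interleukin-2, interleukin-4 and interleukin-6 bind a palindrome that can be searched for. RefSeq sequences for GRCm38.p6 were matched by symbol for 8 of the 10 names, with none for Tox or Cxcr5, and the 250 bases before each start site were used. The letters searched on both strands were TTCNNNGAA (the STAT core, which reads the same on both strands and also resembles the site of Bcl6 itself), the STAT6 palindrome (the same arms with 1 more base between them), TGGGAA (the Ikaros-family core) and CTTTGA (a TCF-1 and Lef1 core). Matches are in capitals, no match overlapped another, and each window is on the minus strand, written 5′ to 3′. The first Bcl6 window lies just before the annotated gene (chr16:23988853-23989102). The second Bcl6 start lies 7569 bp further in, and its window (chr16:23981284-23981533) holds no annotated exon base. The Prdm1 window (chr10:44458749-44458998) lies inside the annotated gene, 69753 bp from its 5′ end, and likewise holds no exon base.
Bcl6 first start: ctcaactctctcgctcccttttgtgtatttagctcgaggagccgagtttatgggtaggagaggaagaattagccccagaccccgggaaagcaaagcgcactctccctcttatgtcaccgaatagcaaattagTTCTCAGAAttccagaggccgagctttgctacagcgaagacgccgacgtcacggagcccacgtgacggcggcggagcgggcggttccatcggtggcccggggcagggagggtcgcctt
Bcl6 second start: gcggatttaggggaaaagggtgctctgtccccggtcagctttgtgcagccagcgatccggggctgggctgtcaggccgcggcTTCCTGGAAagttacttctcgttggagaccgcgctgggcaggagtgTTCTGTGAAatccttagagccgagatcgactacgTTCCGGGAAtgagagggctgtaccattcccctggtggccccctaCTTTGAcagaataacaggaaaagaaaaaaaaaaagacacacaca
Prdm1 start: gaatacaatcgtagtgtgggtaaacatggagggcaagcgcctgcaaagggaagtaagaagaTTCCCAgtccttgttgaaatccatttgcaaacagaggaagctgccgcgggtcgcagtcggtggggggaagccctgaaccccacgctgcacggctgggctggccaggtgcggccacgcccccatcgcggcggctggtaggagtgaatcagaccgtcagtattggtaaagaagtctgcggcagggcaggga
The window before the first Bcl6 start held 1 TTCNNNGAA match, TTCTCAGAA, which began 118 bases before the start. The window before the second start held 3 such matches, TTCCTGGAA, TTCTGTGAA and TTCCGGGAA, which began 168, 122 and 88 bases before it, and 1 CTTTGA match. Of all 32851 windows of the same length, 7.02% held at least 1 TTCNNNGAA match and 0.0274% (9 windows) held at least 3. The cut of 3 is the count seen in the second Bcl6 window, and every motif was searched in all 17 windows of the listed genes. The share is therefore a description and not a test. The Prdm1 window held no TTCNNNGAA match and 1 match to TGGGAA, read on the other strand as TTCCCA, which 21.6% of all windows also held. The STAT6 palindrome, in 5.85% of all windows, was in neither gene's windows, and CTTTGA was in 13.8% of all windows. A match is a string of letters and not a measured binding site, and no binding was measured in these libraries.

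Tcf7 and Lef1 encode the HMG-box factors TCF-1 and LEF-1, which act in naïve and memory T cells and early in the follicular programme. Tcf7 (ENSMUSG00000000782, chromosome 11, 52252371 to 52283014, minus strand) was at 2607, 2431 and 2785 in WT and 2716, 2589 and 2822 in Ikzf4-/- libraries. The ranges overlapped. Its log2 fold change of 0.06 had a 95% interval from -0.08 to 0.19 (limma adjusted p = 0.690). Lef1 (ENSMUSG00000027985, chromosome 3, 131110471 to 131224356, plus strand) was at 2260, 2076 and 2359 in WT and 2514, 2322 and 2533 in Ikzf4-/- libraries. Here Ikzf4-/- replicate 2 lay below WT replicate 3, and the log2 fold change was 0.14, with an interval from 0.00043 to 0.28 (limma adjusted p = 0.275). The antisense gene Gm43352, at a mean of 84.6, covers 13.7% of the exonic length of Lef1, and whether reads were counted by strand is not given in the sources used here. For both genes the interval leaves out a change as large as that of Bcl6.

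Tox, another HMG-box factor, is known from thymic development of CD4 T cells and from follicular and chronically stimulated cells. It lies on the minus strand of chromosome 4, from 6686353 to 6991557 (ENSMUSG00000041272). Its normalized read count was 1726, 2016 and 1867 in WT and 2166, 2129 and 2006 in Ikzf4-/- libraries. All but 1 Ikzf4-/- library were above all WT libraries, the exception being replicate 3, which lay just under WT replicate 2. The log2 fold change was 0.17, with an interval from 0.02 to 0.32, and it was not called (limma adjusted p = 0.209).

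Id2 and Id3 encode helix-loop-helix proteins without a DNA-binding region, which hold E proteins off DNA; Id2 is linked with effector cells and is lowered by Bcl6, and Id3 with naïve, memory and follicular cells. Id2 (ENSMUSG00000020644, chromosome 12, 25093799 to 25097140, minus strand) was at 5506, 3888 and 3127 in WT and 3538, 3406 and 2775 in Ikzf4-/- libraries. WT replicate 1 stood far above the other 5 libraries, which were interleaved. The log2 fold change was -0.33, with an interval from -0.70 to 0.03 (limma adjusted p = 0.319), and it was -0.11 without WT replicate 1 and -0.52 without WT replicate 3. Id3 (ENSMUSG00000007872, chromosome 4, 136143497 to 136145755, plus strand) was at 690, 572 and 454 in WT and 718, 647 and 610 in Ikzf4-/- libraries. Its log2 fold change was 0.22, with an interval from -0.08 to 0.52 (limma adjusted p = 0.438), and it was 0.06 without WT replicate 3 and 0.36 without WT replicate 1.

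Although neither Id gene was called, the ratio of Id2 to Id3 within a library was tighter than either gene alone. It was 7.98, 6.79 and 6.88 in WT and 4.93, 5.26 and 4.55 in Ikzf4-/- cells, with no overlap. On the log2 scale it was 2.85 ± 0.13 in WT and 2.29 ± 0.11 in Ikzf4-/- cells (SD, n = 3 each), a difference of -0.55. This pair was singled out after its values were seen, so the ratio is given without a test. It was 1 of 28 pairs that the 8 genes form, and of the 15 pairs without Bcl6 or Prdm1 it was 1 of 3 with no overlap between genotypes. That share is near the 22.3% found over all pairs of tested genes above 0 in every library, and nothing is read from it.

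Cxcr5 encodes the chemokine receptor that brings follicular helper cells and B cells into follicles. It lies on the minus strand of chromosome 9, from 44511787 to 44561877 (ENSMUSG00000047880). Its normalized read count was 31.9, 61.1 and 36.9 in WT and 38.3, 48.2 and 46.2 in Ikzf4-/- libraries, and the Ikzf4-/- values lay wholly inside the WT range. The log2 fold change was 0.08, with a wide interval from -0.56 to 0.72 (limma adjusted p = 0.920), so a change as large as that of Bcl6 could not be left out. It was -0.11 without WT replicate 1 and 0.35 without WT replicate 2. The gene Bcl9l, on the other strand and at a mean of 977, shares 110 exonic bases with Cxcr5, which is 3.30% of the exonic length of Cxcr5.

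**Figure D4:**
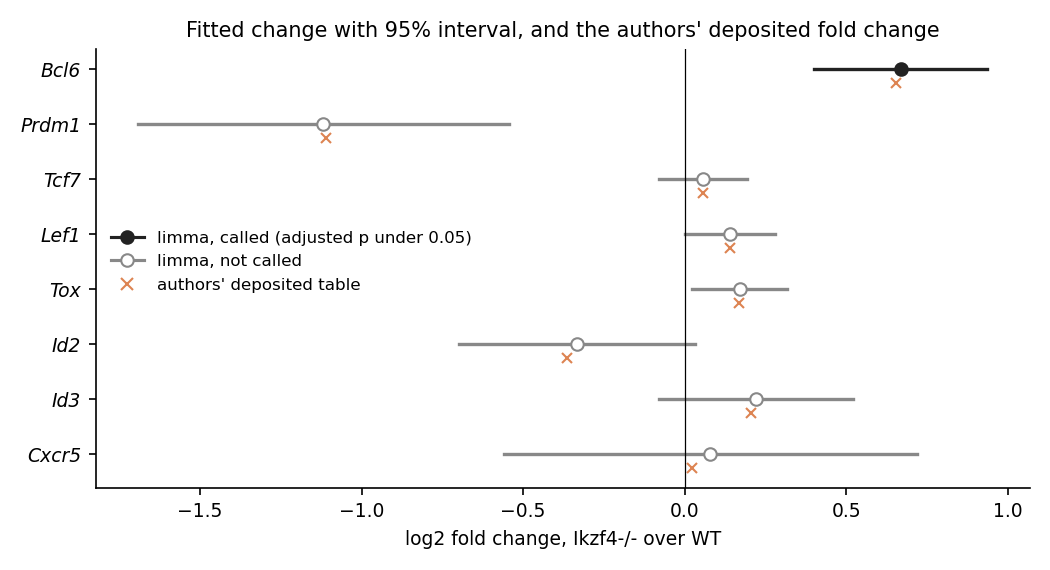
Log2 fold change, Ikzf4-/- over WT, of each of the 8 genes as fitted by limma (circles, lines for the 95% interval, filled where called), with the authors' deposited fold change as crosses. Bcl6 at 0.67 is the only filled point, Prdm1 at -1.12 lies furthest from 0, and Cxcr5 has the widest interval.

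Levels can be compared between genes only per length, so values were divided by the exonic length of each gene in kilobases. On this scale Id2 was the highest, at 1712 ± 498 per kb in WT and 1329 ± 167 in Ikzf4-/- libraries (SD, n = 3 each), and lay between the 87.3rd and 93.7th percentile of all genes in the table over the 6 libraries. Tcf7 followed at 993 ± 67.6 per kb in WT and 1032 ± 44.4 in Ikzf4-/- libraries. Id3 (319 ± 65.8 in WT), Lef1 (254 ± 16.4) and Tox (246 ± 19.1) came next, and in WT these 3 neighbours did not differ beyond their spread. In Ikzf4-/- libraries every Id3 value (368 ± 30.8 per kb) was above every Lef1 (279 ± 13.3) and Tox (264 to 285) value. Bcl6 was lower, at 66.9 ± 11.2 per kb in WT and 106 ± 6.77 in Ikzf4-/- libraries, from the 32.5th to the 43.1st percentile. Prdm1 and Cxcr5 were the lowest. Prdm1 was at 16.1 ± 2.81 per kb in WT, beside 13.0 ± 4.68 for Cxcr5, and at 7.46 ± 2.18 in Ikzf4-/- libraries, beside 13.3 ± 1.56 for Cxcr5. In WT these 2 genes did not differ beyond their spread, and in Ikzf4-/- libraries every Prdm1 value was below every Cxcr5 value. For 7 of the 8 genes the SD of the log2 values was larger in WT than in Ikzf4-/- libraries, the exception being Prdm1 (0.24 in WT and 0.42 in Ikzf4-/-). The same count was not made over all genes, so nothing about these genes is read from it.

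Genes around the axis were read from 7 lists of 48 distinct genes, all of which were tested. Over these lists 2 genes were called higher and 3 lower in Ikzf4-/- cells, where 1.77% of all genes tested were called in either direction. The lists were written with earlier results of these data known. Their counts and medians are therefore descriptions and no independent support. The follicular list (Icos, Pdcd1, Il21, Sh2d1a, Cd40lg, Btla, Slamf6, Maf, Pou2af1, Cxcr4, Cd200, S1pr2 and Tnfsf8) had 1 of 13 genes called. It was Pou2af1, the gene of the transcriptional coactivator OCA-B, which rose (means 847 ± 114 in WT and 1255 ± 135 in Ikzf4-/-, SD, n = 3 each; log2 change 0.57, limma adjusted p = 0.0321). The median log2 fold change of this list was 0.10. Of the 10 genes known to be lowered by Bcl6 in follicular cells (Tbx21, Gata3, Rora, Il7r, Klf2, Selplg, Runx2, Runx3, S1pr1 and Gpr183), 1 was called. It was Runx3, a factor of effector and cytotoxic T cells, which fell (means 1882 ± 479 in WT and 1130 ± 131 in Ikzf4-/-, SD, n = 3 each; log2 change -0.71, limma adjusted p = 0.0436). The median over these 10 genes was -0.24. On the early memory and quiescence list (Ccr7, Il7r, Klf2, Bach2, Foxo1, Foxp1, Satb1, Myb, S1pr1 and Slamf6), which shares 4 genes with the lists above, Foxp1 alone of 10 was called. Foxp1, a factor that holds T cells in quiescence and restrains follicular differentiation, rose (means 4753 ± 502 in WT and 6184 ± 346 in Ikzf4-/-, SD, n = 3 each; log2 change 0.38, limma adjusted p = 0.0319), and the median of the list was -0.17. Each of these 3 calls was lost without single libraries. The limma adjusted p without Ikzf4-/- replicates 1, 2 and 3 was 0.0844, 0.106 and 0.0800 for Pou2af1, 0.123, 0.116 and 0.102 for Runx3, and 0.0974, 0.0916 and 0.0878 for Foxp1. Without WT replicate 2 it was 0.0552 for Pou2af1.

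Signals that enter the axis were read from the receptors and STAT factors. Stat3, which carries the interleukin-6 and interleukin-21 signals that raise Bcl6, was at 11394, 9924 and 9742 in WT and 8021, 8851 and 8128 in Ikzf4-/- libraries. The groups did not overlap, and Stat3 fell by 0.31 on the log2 scale (limma adjusted p = 0.0436). It was the only called gene of 4 on its list, beside Il6ra, Il6st and Il21r, and the adjusted p was 0.0722 without WT replicate 2 and 0.123, 0.0641 and 0.155 without Ikzf4-/- replicates 1, 2 and 3. Of the interleukin-2 receptor and STAT5 genes (Il2ra, Il2rb, Il2rg, Stat5a and Stat5b), 1 of 5 was called. Il2rb, the signalling beta chain, was at 19367, 18169 and 17924 in WT and 14368, 13649 and 14985 in Ikzf4-/- libraries (log2 fold change -0.37, limma adjusted p = 0.0129). Its call held whichever of the 6 libraries was left out. The medians of these 2 lists were -0.14 and -0.09.

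None of the 4 E protein and Id1 genes (Tcf3, Tcf4, Tcf12 and Id1), the partners of Id2 and Id3, was called by limma, and 2 had an unadjusted p under 0.05, as did 18.1% of all genes tested. The median log2 fold change of this list was 0.20. Tcf3, the gene of the E2A proteins, was at 8873, 8322 and 8452 in WT and 7266, 7261 and 7685 in Ikzf4-/- libraries, without overlap, and its log2 fold change was -0.21 (limma adjusted p = 0.0516). Tcf12, which encodes HEB, was without overlap on the other side, with 2709 ± 207 in WT and 3134 ± 11.4 in Ikzf4-/- libraries (SD, n = 3 each; log2 change 0.21, limma adjusted p = 0.0952). For Tcf4 the fitted log2 change was 0.19 (limma adjusted p = 0.550). Both Tcf3 (adjusted p = 0.00670) and Tcf12 (0.0434) were under the threshold in the authors' deposited table, as were 5.48% of the genes tested here. None of the 6 cofactors of Bcl6 or TCF-1 (Ncor1, Bcor, Tle1, Tle3, Tle4 and Ctnnb1) was called by limma either. An unadjusted limma p under 0.05 was found for 3 of them (again against 18.1%). After adjustment 3 were under 0.05 in the authors' deposited table (against 5.48%). The median of the 6 cofactors was 0.09. The most abundant of these by read count, Ctnnb1 (beta-catenin), Tle3 and Ncor1, had log2 fold changes of -0.05, 0.19 and 0.10 (limma adjusted p = 0.631, 0.0834 and 0.302). The other lists had such genes too, counted by unadjusted limma p and then in the authors' deposited table. The counts were 7 and 5 of 10 genes lowered by Bcl6, and 7 and 5 of 10 early memory genes. They were 3 and 1 of 13 follicular genes, 2 and 1 of 4 on the Stat3 list, and 2 and 1 of 5 on the STAT5 list. The lists share genes, and these counts are a description only.

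**Figure D5:**
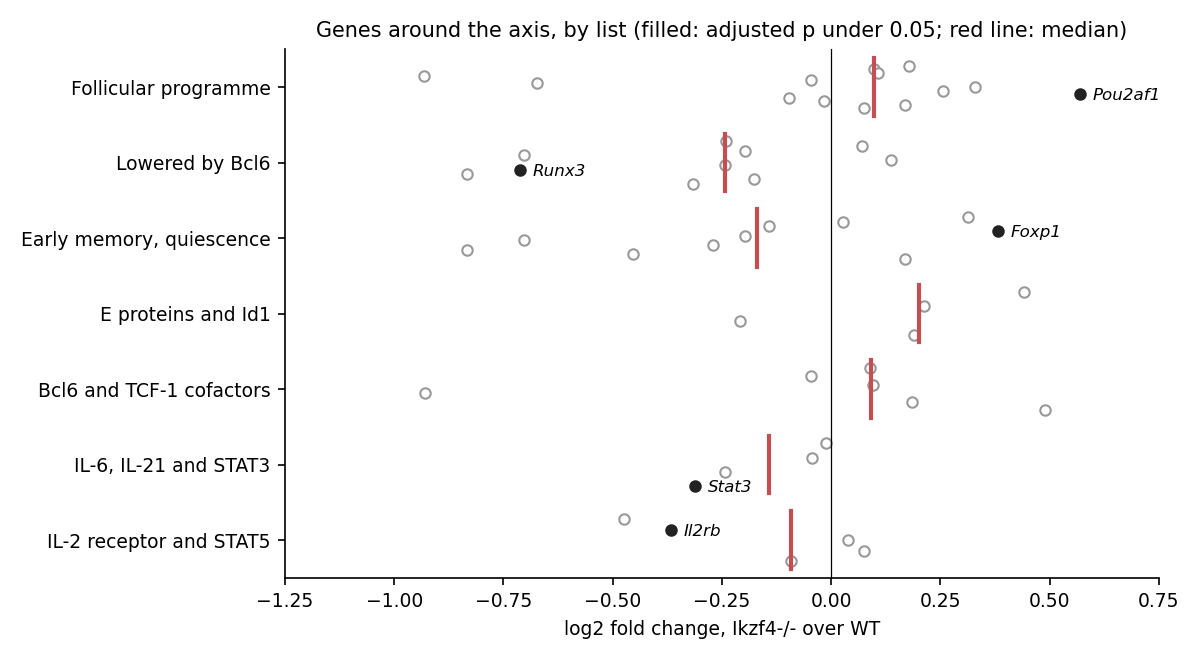
Log2 fold change, Ikzf4-/- over WT (horizontal axis), of every gene on the 7 lists around the axis, with called genes filled and named and the median of each list as a red line. The median lies at -0.24 for the genes lowered by Bcl6, where 2 of 10 fitted changes are above 0. It lies at 0.10 for the follicular programme, where 5 of 13 are below 0, and at 0.00479 over all genes. Over all genes tested, 7621 fitted changes are above 0 and 7243 below. In all, 5 genes on the lists are called. The lists were written with earlier results of these data known, so the medians are a description only.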

How the data were processed

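Total RNA of 3 WT and 3 Ikzf4-/- libraries was sequenced by a service company. The submitters' processing notes name Trimmomatic 0.36, STAR 2.5.2b, DESeq2 and the build GRCm38 (mm10), without their roles; how reads were counted, and whether by strand, is not given in the sources used here. The deposited sample columns hold a never-negative signal, read as normalized read counts: 100% of values in each library were whole multiples (within 0.01) of 1 step. No count test was run, because in Ikzf4-/- replicates 1 and 3 this step was so close to 1 that the implied reads could not be accepted. The log2 fold changes, p-values and adjusted p-values of the authors' deposited table are quoted as theirs.

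Values were transformed to log2(value + 1), which understates changes of low genes. Genes with a mean of at least 10 were kept (14864, leaving out 4). Genotype was fitted with limma 3.58.1 (trend of variance, R 4.3.3), two-sided, with Benjamini-Hochberg adjustment over all genes tested. On simulated data of 14868 genes, all 100 genes changed 2-fold were called, and 44 of 50 raised and 47 of 50 lowered by 0.5 on the log2 scale, with 5 false calls. The simulation gave every gene the same dispersion of 0.0028 and changed only genes with a mean of at least 50. It therefore does not show how often a change is called in genes with a larger spread. Bcl6, Prdm1, Id2, Id3 and Cxcr5 are such genes, with an SD of the log2 values in WT from 0.24 (Prdm1) to 0.49 (Cxcr5). Coordinates and exonic lengths come from GENCODE M21 (GRCm38), and start sites from RefSeq. Every gene with a row among the 10 was named, and from each list the called genes or, with none, the 3 with the highest mean. The genes and lists were chosen with earlier results of these data known, and some list genes are not reported here. Alternatives were other scalings, filters and pseudocounts, the replicate number as a block, array weights, the authors' table and leaving out each library.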

Additional observations from a re-analysis of the deposited data

How the results depend on the processing

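Bcl6 kept its direction in all 16 alternatives and lost its call only without Ikzf4-/- replicate 1, 2 or 3. Prdm1 kept its direction in all 16 and was called under 2, the replicate block (0.0429) and the authors' deposited table (0.0102). Of the 8 genes, 1 was called on all libraries, 2 with the replicate block and 2 in the authors' table, and 0 to 1 with 1 library left out. Over all genes the count of 263 became 754 with the replicate block, 482 with array weights and 815 in the authors' table, and ran from 20 to 523 with 1 library left out. The lists around the axis had 5 called genes, 16 with the replicate block, 8 with array weights, 16 in the authors' table, and 1 to 10 with 1 library left out. Fits without 1 library have fewer samples; otherwise the cause was not tested. The sign of Cxcr5, which no setting called, turned with array weights (-0.10) and without WT replicate 1 or 3, with a range from -0.11 to 0.35 when 1 library was left out. Same-numbered libraries had deviations correlated at 0.145, 0.0122 and 0.142, and WT replicate 2 correlated more with Ikzf4-/- replicate 3 (0.0491), so no pairing by number was assumed. The planned count tests were not run. Over the named genes, 343 alternative values kept direction and call, 17 lost a call, 21 gained one and 3 turned sign. Tcf3, just above the threshold, had a limma adjusted p of 0.0487 with upper quartile scaling, 0.0478 with a minimum of 10 in every library, 0.0488 with a pseudocount of 10, 0.0360 with array weights and 0.0372 with the replicate block.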

Other observations

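Some genes of the lists that missed the threshold had values that did not overlap between genotypes, as did 23.1% of all genes tested. Those given here were chosen after their values were seen. Other uncalled genes of the lists, such as Btla, Maf and Tle1, also did not overlap. Klf2, a factor of quiescent, recirculating T cells, was at 646, 610 and 587 in WT and 278, 449 and 427 in Ikzf4-/- libraries (log2 fold change -0.70, limma adjusted p = 0.0526, and 0.000480 in the authors' deposited table). S1pr1, the receptor for exit from lymph nodes and a target of Klf2, was at 302, 135 and 169 in WT and 121, 119 and 83.4 in Ikzf4-/- libraries (log2 fold change -0.83, limma adjusted p = 0.142, and 0.0176 in the authors' deposited table). Its WT replicate 1 stood well above the other WT libraries, and without it the log2 fold change was -0.50.

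Cxcr4, a chemokine receptor of follicular and other T cells, was at 715, 491 and 403 in WT and 228, 378 and 235 in Ikzf4-/- libraries (log2 fold change -0.93, limma adjusted p = 0.0634, and 0.0780 in the authors' deposited table). Bach2, a repressor of effector differentiation, was at 3543, 4401 and 3803 in WT and 4541, 5009 and 4993 in Ikzf4-/- libraries (log2 fold change 0.31, limma adjusted p = 0.0648, and 0.00422 in the authors' deposited table).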
